A study of Mus musculus with 9 samples.

Results

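Transcription at 6 genes that mark the exit from naive pluripotency, Otx2, Pou3f1, Lef1, Dnmt3a, Dnmt3b and Fgf5, was measured at 0, 15 and 30 min after a Firre transgene was induced. The data were PRO-seq counts, a run-on assay that reports where engaged RNA polymerase sits, over bidirectional regions, sites from which polymerases set off on both strands. A region was taken as a member when its centre lay inside any of the 6 genes or within 20 kb of either end (RefSeq, GRCm38, the same assembly as mm10). This gave 81 of the 174289 regions, 38 at Dnmt3a, 12 at Pou3f1, 11 at Otx2, 10 at Lef1, 8 at Dnmt3b and 2 at Fgf5. The rule uses gene names and positions, not counts.

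The cells were mouse embryonic stem cells in which the endogenous Firre gene, a source of a nuclear long non-coding RNA, was knocked out and which carried an inducible Firre transgene. All 9 libraries shared this genotype and were grown on gelatin with serum, LIF and the kinase inhibitors PD0325901 and CHIR99021. The 0 min group received no doxycycline and the 15 and 30 min groups received 1 ng/μL, with 3 libraries at each time. No group without the transgene was given doxycycline among the samples used here, so drug and transgene cannot be told apart. Nothing in the labels ties the 3 libraries of a group to separate cultures, and p-values therefore reflect only how far these libraries vary, part of which may be technical.

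Naive embryonic stem cells resemble the preimplantation epiblast, and cells that leave this state pass through a formative stage before the primed stage of the postimplantation epiblast. Otx2 and Pou3f1 (Oct6) encode transcription factors that direct enhancers in this transition. Lef1 encodes a DNA-binding partner of β-catenin at the end of the WNT pathway, Dnmt3a and Dnmt3b encode the de novo DNA methyltransferases, and Fgf5 encodes a secreted growth factor used as a marker of the postimplantation epiblast. In the culture used here PD0325901 blocks the MEK kinases below FGF receptors and CHIR99021 blocks GSK3, which stabilises β-catenin.

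The 4 stretches of DNA before annotated starts shown here were chosen because they overlap windows at or next to these starts. The windows of Dnmt3a, Lef1 and Dnmt3b hold a transcribed start. The window of Fgf5 ends just before its start and held almost no reads. Sequences are from RefSeq's GRCm38.p6 table, 5′ to 3′ on the plus strand, which is the strand of all 4 genes, and capitals mark GC boxes (GGGCGG on either strand). The Dnmt3a stretch is chr12:3891494-3891743, before a start inside the gene. The Lef1 stretch is chr3:131110047-131110296, the Dnmt3b stretch is chr2:153649199-153649410 and the Fgf5 stretch is chr5:98253934-98254183.
Dnmt3a, internal start: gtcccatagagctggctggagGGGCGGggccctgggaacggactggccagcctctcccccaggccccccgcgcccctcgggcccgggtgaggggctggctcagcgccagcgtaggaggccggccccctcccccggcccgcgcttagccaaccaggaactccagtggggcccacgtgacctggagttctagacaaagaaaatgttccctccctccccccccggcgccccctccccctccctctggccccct
Lef1: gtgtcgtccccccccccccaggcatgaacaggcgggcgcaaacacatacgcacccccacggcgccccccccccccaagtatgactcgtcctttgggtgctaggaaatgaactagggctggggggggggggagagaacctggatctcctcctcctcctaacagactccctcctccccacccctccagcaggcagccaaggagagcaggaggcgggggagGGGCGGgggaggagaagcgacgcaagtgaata
Dnmt3b: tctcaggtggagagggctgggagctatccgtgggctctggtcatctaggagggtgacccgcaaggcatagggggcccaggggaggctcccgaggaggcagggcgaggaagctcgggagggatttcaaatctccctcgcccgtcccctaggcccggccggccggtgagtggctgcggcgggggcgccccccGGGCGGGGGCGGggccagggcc
Fgf5: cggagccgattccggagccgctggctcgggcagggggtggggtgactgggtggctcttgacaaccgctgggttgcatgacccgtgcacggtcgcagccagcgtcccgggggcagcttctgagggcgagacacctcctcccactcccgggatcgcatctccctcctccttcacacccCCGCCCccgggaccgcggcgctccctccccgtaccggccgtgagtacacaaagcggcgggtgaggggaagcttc

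The 250 bases before the start were 73.6% G or C at the internal Dnmt3a start, 66.4% at Lef1, 75.2% at Dnmt3b and 70.8% at Fgf5, against a median of 52.4% over 32851 promoters of the same length. At Dnmt3b 38 of these bases lie inside the annotated gene and were left out of the stretch shown, which is therefore 212 bases long and 73.6% G or C. The 250 bases held 3 GC boxes at Dnmt3b (2 of them in the stretch shown, where they abut, and 1 in the part left out) and 1 at each of Dnmt3a, Lef1 and Fgf5. Of all promoters, 32.7% held a GC box. The other motifs were also searched on both strands. The TATA box letters, TATAAA, were in 12.4% of all promoters. The TCF/LEF letters, CTTTGAT, were in 3.21% and the POU octamer, ATGCAAAT, in 1.60%. The OTX letters, TAATCC, were in 6.25% of all promoters, and the E-box letters searched, CACGTG, were in 6.02%. Of these, 1 had a match in the 250 bases before these 4 starts. It was CACGTG at the Dnmt3a internal start, 80 bases before the start and apart from the GC box 229 bases before it. The corresponding 250 bases before an internal Otx2 start, on the minus strand, were 53.6% G or C and held none of the 6 motifs. These are matches of letters only. GC-rich sequence was present before the Fgf5 start, where the window held almost no reads, as well as before the transcribed starts.

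The libraries held 3813365 to 5980366 reads in the regions, so that 3 reads correspond to 0.50 to 0.79 CPM, the count scaled to library size with its TMM factor. As a check of the labels, the 8 regions at Firre together held 3.34 ± 1.37 CPM at 0 min, 295 ± 37.1 at 15 min and 785 ± 7.33 at 30 min (SD, n = 3 each). Among embryonic stem cell markers, the gene-end regions of Nanog, Sox2 and Zfp42 averaged 305, 287 and 30.8 CPM. Pou5f1 and Esrrb were also listed, and no region within 1 kb of their ends was found. The regions at 2 of 5 primitive endoderm markers, Gata6 and Gata4, together gave 0.448 to 2.48 CPM per library. Those at 3 of 6 fibroblast markers, Col1a1, Thy1 and Twist2, gave 0.932 to 3.50 CPM. The other markers listed for these cell types had no such region. In a bulk sample, fewer cells that transcribe a gene and less transcription per cell cannot be told apart.

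Transcription around the 6 genes differed widely in level. Every window was 600 bp long, so CPM of single windows compare genes over an equal length. In the most transcribed window of each gene, the mean over the 9 libraries was 79.1 CPM for Lef1, 45.6 for Dnmt3a, 23.4 for Otx2, 21.7 for Dnmt3b, 5.42 for Pou3f1 and 0.685 for Fgf5. At all 3 times the ranges of the libraries did not overlap between neighbours in this order, other than those of Otx2 and Dnmt3b, which overlapped at all 3 times. The leading windows are not like parts of the genes: that of Lef1 lies upstream of the gene at an end of another gene, and that of Otx2 lies past the gene's end. In windows over annotated starts the order was different, with means of 45.6 CPM for Dnmt3a, 30.2 for Lef1, 21.7 for Dnmt3b and 1.68 for Otx2. The window nearest the Fgf5 start, at 0.180 CPM, ends before that start and is not a like measure. The plot of the leading windows by library shows their levels.

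**Figure D1:**
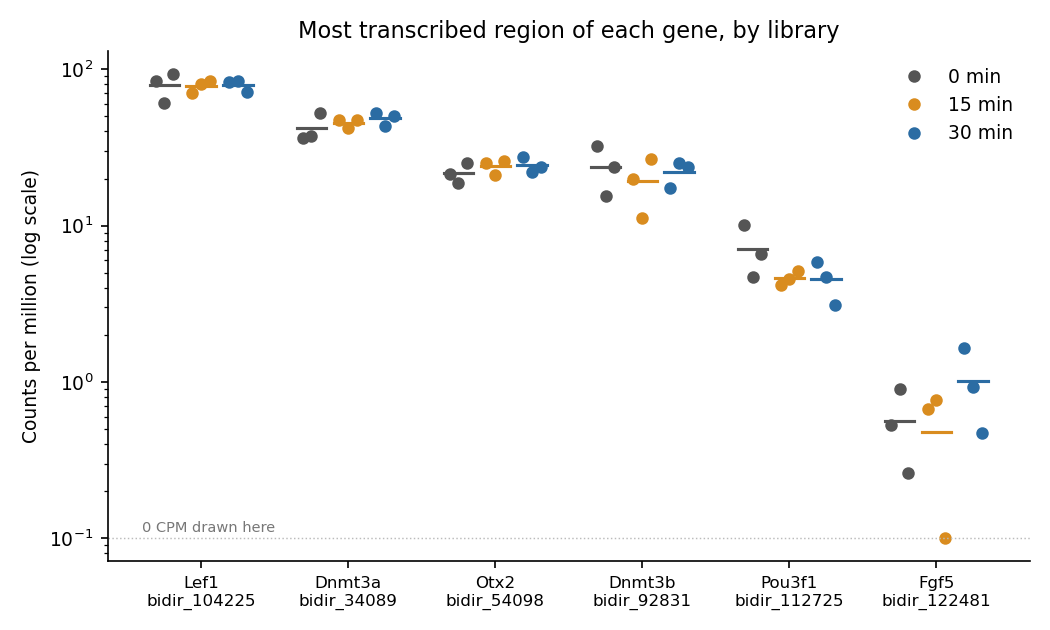
CPM (log scale) in the most transcribed 600 bp window of each gene, by library (points) and time (colours), with the mean of 3 libraries as a line and 0 CPM drawn at 0.1. The Lef1 window lay between 60.7 and 93.3 CPM in all 9 libraries and the Fgf5 window between 0 and 1.64 CPM, and at no gene did the times separate.

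Summed over all its member windows, which differ in number between genes, each gene also gave like totals at the 3 times. The sums include windows at other genes and are not levels of the named gene alone. The Lef1 sum holds windows at Gm36603 with means of 75.6 and 79.1 CPM. That of Dnmt3b holds a window at the Commd7 end with 21.1 CPM. The sum for Lef1 was 220 ± 29.8, 227 ± 11.1 and 221 ± 11.0 CPM at 0, 15 and 30 min (SD, n = 3, as for all sums here). For Dnmt3a it was 132 ± 14.7, 142 ± 8.85 and 145 ± 11.9 CPM. For Dnmt3b it was 56.0 ± 9.61, 46.4 ± 8.72 and 52.7 ± 3.01 CPM. The differences between times in these sums were of the size of the spread between libraries. The sum for Otx2 was 52.2 ± 10.2, 57.4 ± 5.81 and 53.0 ± 1.80 CPM, and for Pou3f1 it was 23.0 ± 4.51, 20.7 ± 2.24 and 18.7 ± 5.84 CPM.

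Of the 81 members, 35 had enough reads for a test (16 at Dnmt3a, 8 at Lef1, 5 at Dnmt3b, 4 at Pou3f1, 2 at Otx2, none at Fgf5). The other 46 had a mean of at most 8.22 reads per library and at most 1.68 CPM. Between 0 and 15 min 1 of the 35 was called by edgeR's quasi-likelihood test at a Benjamini-Hochberg adjusted p under 0.05, while 8.25% of all 54299 tested regions were called. By DESeq2's Wald test it was 0 of the 35, while 6.72% of all were called. Between 0 and 30 min none was called against 1.74% of all regions, with a smallest adjusted p of 0.198 in that test. At this time 6 members (against 15.2% of all regions) had an unadjusted p under 0.05, and 0 were called by DESeq2 (against 1.65% of all). Between 15 and 30 min none was called against 0.704% of all regions, with a smallest adjusted p of 0.349 in the same edgeR test. Here 1 member (against 9.63% of all regions) had an unadjusted p under 0.05, and 0 were called by DESeq2 (against 0.864% of all). Counts of 1, 0 and 0 in 35 regions are small, and their difference from these background shares was not tested. All comparisons with 0 min share the same 3 untreated libraries.

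The members did not lean to either side. At 15 against 0 min 17 had a positive and 18 a negative log2 change, with a median of -0.012 and a range of -1.04 to 1.13, beside a median of 0.025 over all tested regions. At 30 against 0 min 17 were positive and 18 negative, with a median of -0.049 beside -0.0010 over all. The median depends on the scaling: with TMM factors taken from gene ends alone, it was 0.15 at 15 min and 0.076 at 30 min, beside 0.19 and 0.11 over all regions. At 15 against 0 min 6 members had an unadjusted p under 0.05 (17.1% against 23.2% of all regions). In 7 members the CPM of the 2 groups did not overlap (20.0% against 25.5% of all).

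**Figure D2:**
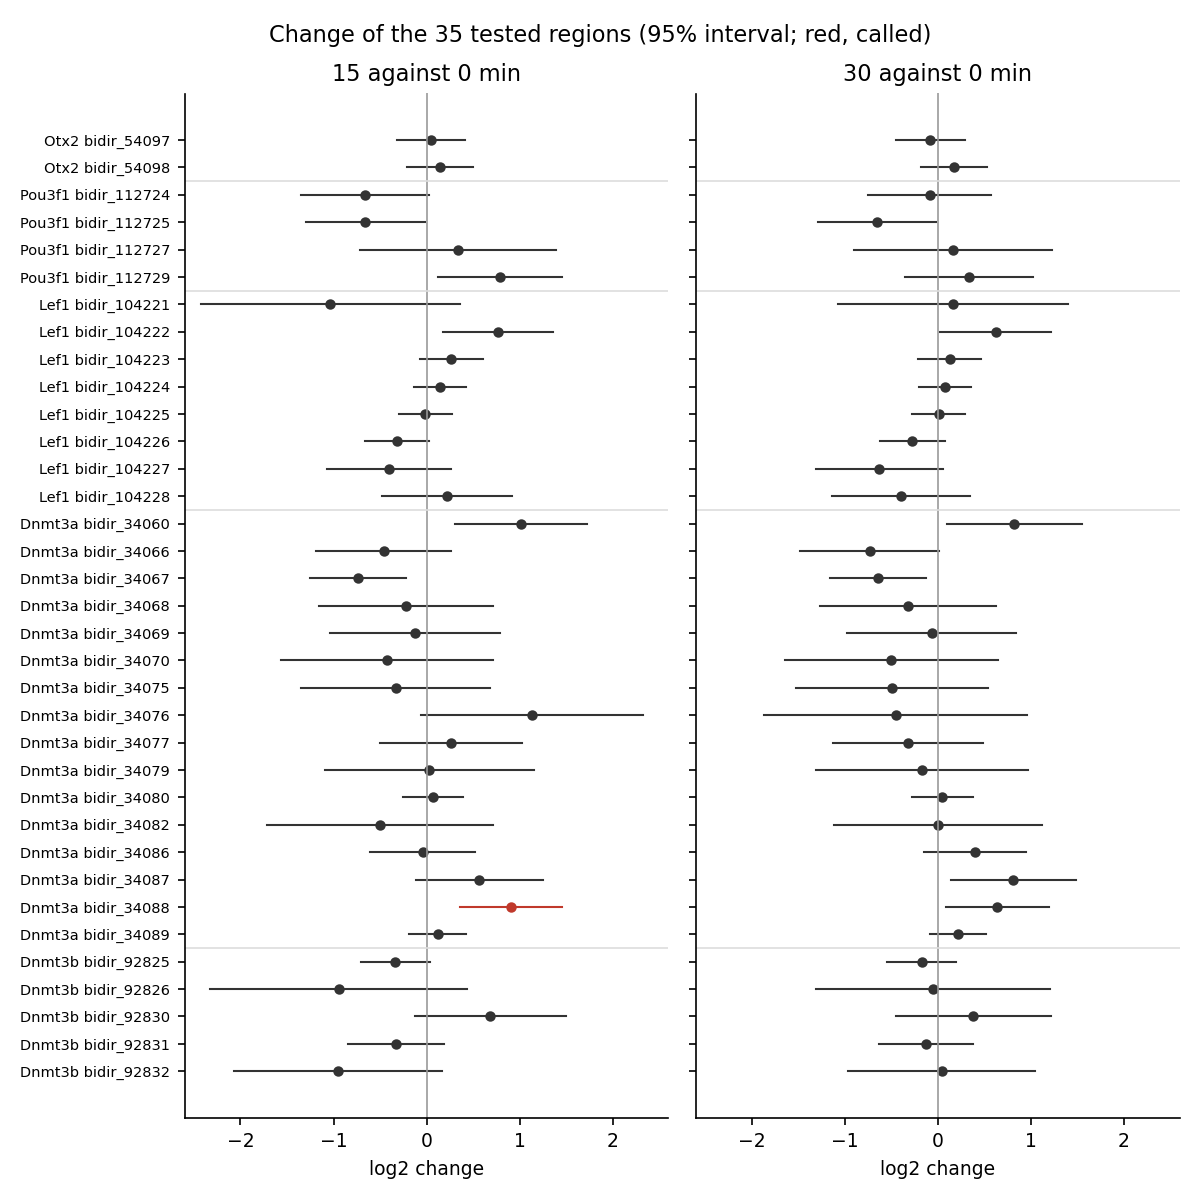
Log2 change (points) and 95% interval (lines) of the 35 tested windows, by gene, at 15 against 0 min (left) and 30 against 0 min (right). The windows lie on both sides of 0, and the Dnmt3a window in red, 0.91 at 15 min, is the 1 called.

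Member windows also differed by where they lay. At 15 against 0 min the median log2 change was -0.33 for the 7 tested windows within 1 kb of an annotated gene end, -0.0057 for the 18 inside a gene and 0.24 for the 10 outside genes. All tested regions gave -0.16, 0.028 and 0.21 in the same 3 places. At 15 min the members thus followed the order seen in all regions, and the difference between places within the members was not tested. At 30 against 0 min the member medians were -0.13, -0.24 and 0.17, beside -0.12, 0.0097 and 0.12 over all.

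Dnmt3a, the larger of the methyltransferase genes (chr12:3801559-3914443, plus strand), held the called window and the widest field of transcription. Its most transcribed window, bidir_34089 (chr12:3891347-3891946), covers the internal start whose upstream DNA is shown above. This start lies inside the long gene and gives the shorter Dnmt3a2 isoform, the main form in embryonic stem cells. The window is also inside the lncRNA gene Gm31623, annotated on the minus strand, and the strand that was counted is not given in the sources used here. It held 36.5, 37.6 and 52.7 CPM at 0 min, 47.5, 41.9 and 47.4 at 15 min, and 52.7, 43.6 and 50.3 at 30 min. The first pair of untreated libraries were the lowest of the 9, but the third was at the top, so the groups overlapped. Its log2 change came to 0.12 ± 0.15 (SE) at 15 min and 0.22 ± 0.15 at 30 min, with adjusted p of 0.685 and 0.527 (edgeR quasi-likelihood). The 95% interval at 30 min ran from -0.089 to 0.52. This window carried 32.6% of the summed CPM of all Dnmt3a windows.

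The called window, bidir_34088 (chr12:3889695-3890294), lies inside Dnmt3a and Gm31623, 1.75 kb before the internal start. It held 31, 24 and 19 reads at 0 min, 73, 46 and 36 at 15 min, and 58, 33 and 34 at 30 min. In CPM this was 5.49, 5.37 and 4.98 at 0 min, 12.2, 8.77 and 8.74 at 15 min, and 10.6, 6.15 and 8.06 at 30 min. Every treated library was above every untreated library, and the untreated libraries lay close together. The log2 change was 0.91 ± 0.26 (SE), a 1.88-fold rise, at 15 min (edgeR adjusted p = 0.0318, 95% interval 0.37 to 1.45). At 30 min the log2 change was 0.64 ± 0.27 with an adjusted p of 0.246 in the same test, which was not called. Between 15 and 30 min the log2 change was -0.27 ± 0.25 (adjusted p = 0.789, edgeR).

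That call did not hold in every setting. DESeq2's Wald test gave 0.89 ± 0.32 with an adjusted p of 0.0539, and the edgeR call was also lost without a filter (0.87 ± 0.28, adjusted p = 0.0614), without any of the 3 untreated libraries or without library 1 or 2 at 15 min. Without these libraries the edgeR adjusted p lay between 0.0593 and 0.191. The window shares 102 bp with its neighbour bidir_34087 (chr12:3889197-3889796), and how reads in the shared stretch were counted is not given in the sources used here. In that neighbour, singled out after its values were seen, the log2 change was 0.57 ± 0.33 at 15 min and 0.81 ± 0.33 at 30 min, with edgeR adjusted p of 0.315 and 0.220. The reads of both windows together came to 9.85 ± 2.64, 16.5 ± 1.76 and 16.1 ± 2.67 CPM at the 3 times (SD, n = 3). The plot of the windows before the internal start shows all 9 libraries.

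**Figure D3:**
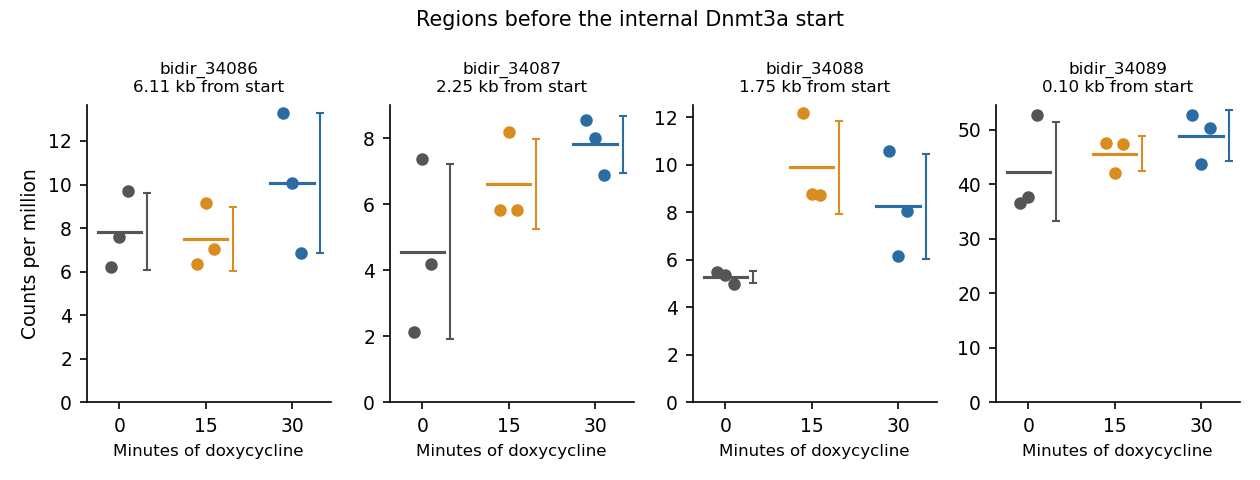
CPM in 4 neighbouring Dnmt3a windows, ordered towards the internal start, by library (points), with the mean (line) and SD (bar) at each time (n = 3), each panel on its own axis from 0. In bidir_34088 the untreated libraries sit at 4.98 to 5.49 CPM below all treated libraries, while in bidir_34089, at the start itself, the groups overlap.

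The remaining tested Dnmt3a windows pointed both ways. Of the 16 tested, 8 had a positive and 8 a negative log2 change at 15 min, with a median of -0.0057. Beside bidir_34088, the smallest adjusted p at 15 min (edgeR) was 0.0674, shared by a window 9.71 kb upstream of the gene (bidir_34060, 1.02 ± 0.35) and a window 1.90 kb from an annotated start inside it (bidir_34067, -0.74 ± 0.25), both singled out after their values were seen. The first lay above all untreated libraries (2.38 ± 0.553 CPM at 0 min and 4.77 ± 0.977 at 15 min) and the second lay below them (11.1 ± 0.820 and 6.79 ± 2.36 CPM, SD, n = 3). Neither was called. Over its 38 windows the median level was 1.23 CPM, and the next highest after the start, 20.5 kb before it, held 26.5 CPM with a log2 change of 0.068 ± 0.16 at 15 min.

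**Figure D4:**
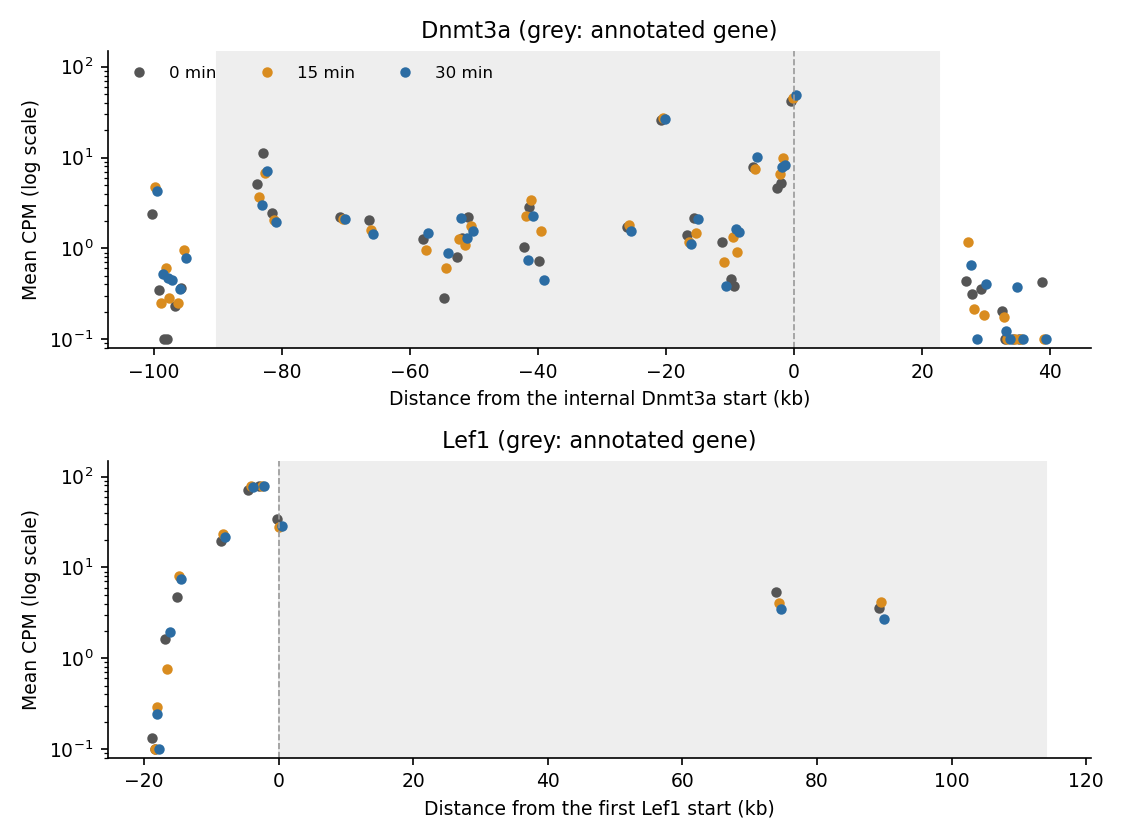
Mean CPM (log scale, values under 0.1 drawn at 0.1) of member windows at 0, 15 and 30 min against the distance in kb from the internal Dnmt3a start (top) and the first Lef1 start (bottom), with the annotated gene in grey and the times drawn side by side. Transcription peaked at the internal start of Dnmt3a and before the start of Lef1, and the colours of the 3 times lie on each other at the most transcribed windows.

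Dnmt3b (chr2:153649411-153687730, plus strand), the other de novo methyltransferase gene, had its most transcribed window at its start. The window over the start, bidir_92831 (chr2:153649161-153649760), carried 42.0% of the summed CPM of its 8 windows. It held 32.4, 15.4 and 23.6 CPM at 0 min, 20.0, 11.2 and 26.7 at 15 min, and 17.5, 25.0 and 23.7 at 30 min. Libraries of the same time differed widely and the groups overlapped throughout. This gave a log2 change of -0.33 ± 0.25 at 15 min and -0.13 ± 0.25 at 30 min (edgeR adjusted p of 0.459 and 0.869). Of the 5 tested Dnmt3b windows, 1 was positive and 4 were negative at 15 min. Another tested window, at the end of the neighbouring gene Commd7 16.7 kb upstream, held 21.1 CPM on average. It lies before the 1 annotated Dnmt3b start, so its reads are not taken here as transcription of Dnmt3b.

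The windows around Lef1 (chr3:131110297-131224357, plus strand) reached the highest levels, most of them before the gene. The highest lie at an end of or inside another gene, so their reads are not taken here as transcription of Lef1. Its most transcribed window, bidir_104225 (chr3:131107452-131108051), was 2.55 kb upstream of the gene and at an end of the lncRNA gene Gm36603, and carried 35.5% of the summed CPM of the 10 Lef1 windows. It held 83.6, 60.7 and 93.3 CPM at 0 min, 70.7, 80.8 and 84.3 at 15 min, and 82.9, 84.4 and 71.3 at 30 min. The untreated libraries spanned the whole range of the others. The log2 change was -0.012 ± 0.14 at 15 min and 0.0098 ± 0.14 at 30 min, with 95% intervals of -0.30 to 0.27 and -0.27 to 0.29. The next window, 4.17 kb upstream and inside Gm36603, was nearly as high at 75.6 CPM and had a log2 change of 0.15 ± 0.14 at 15 min.

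The window over the first Lef1 start, bidir_104226 (chr3:131110093-131110692), held less than both windows 2.55 and 4.17 kb upstream. It held 38.4, 28.0 and 36.7 CPM at 0 min, 24.0, 29.5 and 29.4 at 15 min, and 24.2, 33.9 and 27.3 at 30 min. Library 2 at 0 min lay among the treated libraries and the others above them. At the start the log2 difference from 0 min was -0.32 ± 0.17 at 15 min and -0.27 ± 0.17 at 30 min (edgeR adjusted p of 0.254 and 0.467). Of the 8 tested Lef1 windows, 4 were positive and 4 negative at 15 min. The smallest adjusted p was 0.0986 (edgeR), at a window 14.8 kb upstream (bidir_104222, 0.77 ± 0.29, named after its values were seen).

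Lef1 was also the only gene of the 6 in which windows inside the gene could be set against the window at its end within each library, a ratio that does not depend on scaling. Log2 of internal over gene-end reads was -1.78, -1.78 and -2.30 at 0 min, -1.52, -1.77 and -1.90 at 15 min, and -1.91, -2.63 and -1.97 at 30 min. The groups at 0 and 15 min overlapped. The difference in this log2 ratio was 0.22 ± 0.30 at 15 against 0 min and -0.22 ± 0.30 at 30 against 0 min, with limma adjusted p of 0.725 and 0.825 over 4178 genes. At 30 min all 3 libraries lay below all 3 at 15 min, a difference of -0.44 ± 0.30 that was not called (limma adjusted p = 0.720). Of those genes 3.88% were called at 15 against 0 min, 0% at 30 against 0 min and 0.144% at 30 against 15 min.

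Otx2 (chr14:48656781-48667644, minus strand) had most of its window reads past the gene's end. Reads between windows were not counted, so the transcription of the gene as a whole is not shown. Its most transcribed window, bidir_54098 (chr14:48655118-48655717), was 1.36 kb past the gene's end and carried 43.2% of the summed CPM of its 11 windows. It held 21.4, 18.8 and 25.2 CPM at 0 min, 25.0, 21.0 and 26.0 at 15 min, and 27.5, 22.2 and 23.7 at 30 min. The groups overlapped, and the log2 change was 0.14 ± 0.17 at 15 min and 0.17 ± 0.17 at 30 min (edgeR adjusted p of 0.673 and 0.695). A window 5.29 kb past the end gave a like level of 22.8 CPM and a log2 change of 0.051 ± 0.18 at 15 min. The 9 windows inside and upstream of the gene averaged at most 1.68 CPM, the highest being the one at the internal start (bidir_54101, chr14:48662439-48663038), and none was tested.

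Pou3f1 (chr4:124657646-124660655) is a short gene with windows at both sides of its lower-coordinate end, both of them also at an end of the lncRNA gene Gm2164. The more transcribed, bidir_112725 (chr4:124657903-124658502), held 10.1, 4.70 and 6.55 CPM at 0 min, 4.17, 4.58 and 5.10 at 15 min, and 5.83, 4.66 and 3.08 at 30 min. Library 1 at 0 min was the highest of the 9, and library 2 at 0 min lay among the treated ones. The log2 change was -0.66 ± 0.31 at 15 min and -0.65 ± 0.31 at 30 min, with edgeR adjusted p of 0.202 and 0.316, and neither was called. The window beside it, bidir_112724 (chr4:124657060-124657659), held 6.02, 3.13 and 7.60 CPM at 0 min, 4.33, 2.48 and 3.64 at 15 min, and 5.65, 5.40 and 4.50 at 30 min. Its libraries at 30 min lay above those at 15 min and within the range of those at 0 min. The log2 change was -0.66 ± 0.34 at 15 min and -0.089 ± 0.32 at 30 min (edgeR adjusted p of 0.240 and 0.935). Of the 4 tested Pou3f1 windows, 2 were positive and 2 negative at 15 min. The smallest adjusted p was at bidir_112729, 12.5 kb past the higher-coordinate end and named after its values were seen. It held 3.37, 3.58 and 2.62 CPM at 0 min, 5.50, 4.77 and 6.56 at 15 min, and 4.92, 4.47 and 2.61 at 30 min. All libraries at 15 min lay above those at 0 min, while those at 30 min overlapped both. Its difference from 0 min was 0.79 ± 0.32 (log2) at 15 min and 0.34 ± 0.34 at 30 min, and neither was called (edgeR adjusted p of 0.137 and 0.696).

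Fgf5 (chr5:98254184-98277033, plus strand) had almost no reads in its windows. The window by its start, bidir_122480 (chr5:98253574-98254173), ends before the start and held 9 reads in all 9 libraries together. The window inside the gene, bidir_122481, held 32. The inner window had 3, 4 and 1 reads at 0 min, 4, 4 and 0 at 15 min, and 9, 5 and 2 at 30 min. Most of these counts are at or near the 3 reads that a count of 0 still allows, and the window was below the filter, so it was not tested. The 3 libraries of a time together held 8, 8 and 16 reads at 0, 15 and 30 min.

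The other genes of the pathways were taken from lists and represented by their most transcribed gene-end region. Of 22 other formative and primed genes 20 had such a region and 18 were tested. None was called by edgeR in any of the 3 comparisons, while 10.7%, 1.41% and 0.762% of the 11556 tested gene-end regions that represent a gene were called at 15 against 0, 30 against 0 and 30 against 15 min. At an unadjusted p under 0.05 were 3, 4 and 5 of the 18 (16.7%, 22.2% and 27.8%), beside 27.1%, 15.2% and 10.2% of those 11556. Their median log2 change was -0.074 at 15 min and 0.089 at 30 min, beside -0.15 and -0.11 over the same 11556. The most transcribed were Utf1 (297 CPM), a chromatin factor of pluripotent cells, and the zinc finger genes Zic2 (167 CPM) and Zic5 (113 CPM). Of the 9 genes of the DNA methylation machinery 5 were tested and none was called at any time, where the shares of all gene-end regions were those just given, and 0 of the 5 had an unadjusted p under 0.05. The most transcribed were Trim28 (345 CPM), Uhrf1 (138 CPM), which brings the maintenance methyltransferase to DNA, and Tdg (61.0 CPM), a DNA glycosylase.

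Among the TCF/LEF family and WNT targets 7 of 9 genes had a region and 6 were tested. At 15 against 0 min 1 of the 6 was called (16.7%), beside 10.7% of the 11556 gene-end regions. Of those regions 997 were called lower and 235 higher, and their median log2 change was -0.15. At 30 against 0 and 30 against 15 min 0 of the 6 were called, beside 1.41% and 0.762%. Tcf7l2, a relative of Lef1, fell by 0.80 ± 0.20 on the log2 scale at 15 min, from 28.7 to 16.7 CPM (edgeR adjusted p = 0.0149). That call was lost without library 1 at 0 min or library 1 at 15 min, with a highest adjusted p of 0.145. At 30 min the Tcf7l2 value was -0.31 ± 0.20 and was not called. Tcf7l1, the most transcribed of the family at 51.6 CPM, had a log2 change of 0.15 ± 0.14 at 15 min, and Tcf7, at 15.5 CPM, had -0.84 ± 0.27 (edgeR adjusted p = 0.0555).

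For comparison, 11 of 12 naive pluripotency genes were tested at their gene ends. At 15 against 0 min 2 of the 11 were called (18.2%), both higher, beside 10.7% of the 11556 gene-end regions. At 30 against 0 min 1 was called (9.09%, beside 1.41%), and at 30 against 15 min 0 were called (beside 0.762%). Nr0b1, a nuclear receptor gene of naive cells, rose by 0.50 ± 0.12 on the log2 scale at 15 min (edgeR adjusted p = 0.00671). It was 0.45 ± 0.12 above 0 min at 30 min, with an adjusted p of 0.0406 in that test. The call at 30 min was kept in 10 of 18 settings. It was lost without any of the 3 untreated libraries, without any of the 3 at 30 min, without library 1 at 15 min and without a filter. Prdm14, a gene for a zinc finger factor that restrains FGF signalling, rose by 0.38 ± 0.11 at 15 min (edgeR adjusted p = 0.0274), and this call was lost without library 1 or 3 at 0 min, library 2 at 15 min or library 2 at 30 min, without a filter, and with only the 2 groups compared in the fit. Fgf4 (310 CPM), Nanog (305 CPM) and Tbx3 (183 CPM) were the most transcribed and were not called. Taken by the rule used for the 6 genes, the naive genes had 89 regions, of which 50 were tested and 9 were called, all higher, at 15 against 0 min (18.0%, beside 8.25% of all regions). At 30 against 0 min 5 were called, all higher (10.0%, beside 1.74% of all), and at 30 against 15 min 0 were called by edgeR (beside 0.704%), with 5 at an unadjusted p under 0.05. The members had 1, 0 and 0 of 35 in these comparisons, and the difference between both sets was not tested. The sets differ in depth, with a median of 16.0 CPM over the tested naive regions and 4.29 over the tested members. Over all tested regions it was 5.75 CPM. Fewer reads leave less power for a call, so these shares are not directly comparable.

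Each leading window was set against 8676 to 8679 gene-end windows of other genes by the root mean square difference of centred log2 CPM over the 9 libraries. The nearest to Lef1 were Pdpn (0.077) and Hsf1 (0.088), to Dnmt3a Gm13056 (0.089) and Eif2b2 (0.090), and to Otx2 LOC115486880 (0.062) and Chd9 (0.079). The nearest to Dnmt3b was Gm34963 (0.111), and the nearest to Pou3f1 were Mapk15 (0.110) and Ank (0.134). Over all windows compared the median difference was 0.272 to 0.423. The nearest windows were picked as the closest of all and are a description of these libraries.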

How the data were processed

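PRO-seq was read from 9 libraries of mouse embryonic stem cells, 3 at each of 0, 15 and 30 min. The deposited table holds raw read counts per 600 bp region and library, and the other deposited lists give region positions on mm10. HISAT2, featureCounts and DESeq2 1.26.0 are listed in the submitters' processing notes, and the strand setting and the handling of overlapping windows are not given in the sources used here. Reads of the Drosophila nuclei mixed in (1%, per the labels) were not used, so changes are relative to other mouse regions. Of the 174289 windows 29.2% overlap another.

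Gene positions were those of RefSeq, and 39375 of 49997 annotated genes (pseudogenes left out) were used to name neighbours. In R 4.3.3, edgeR 4.0.16 fitted all 9 libraries together with time as a factor, after filterByExpr (119990 regions removed, 54299 tested) and TMM scaling (factors 0.971 to 1.02). Quasi-likelihood p-values received a Benjamini-Hochberg adjustment over the 54299 regions, with calls at 0.05. SEs of log2 changes were derived from the F statistics. The common dispersion of 0.0228 corresponds to a coefficient of variation of 15.1%. Log2 of internal over gene-end counts (0.5 added, a mean of at least 20 counts in each) was tested with limma 3.58.1 over 4178 genes. DESeq2 1.42.0 was an alternative. The fits were tested on simulated data.

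The members and gene lists were chosen with earlier results of these data known. Named were each gene's most transcribed window, windows at its ends, called windows, and of each list the called genes and the 3 of highest CPM. Windows named beyond this were chosen after their values were seen. The alternatives were other scalings, filters, tests and windows and leaving out each library. Replicates differed by more than sampling noise (chi-square per degree of freedom 2.26 to 3.76). Deviations of same-numbered libraries from their group means correlated at -0.048 to 0.175, and those of unlike-numbered libraries at -0.199 to 0.102. These values do not settle whether the numbers mark pairs. The numbers were not taken as pairs, and a fit with the number as a block is given as an alternative. Of the 2 windows nearest in pattern to each leading window, 1 for Dnmt3b is not reported here.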

Additional observations from a re-analysis of the deposited data

How the results depend on the processing

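The count of member windows called at 15 against 0 min was 1, and it was 3 with TMM factors from gene ends alone (adding bidir_34060 at 1.19 and bidir_104222 at 0.93), 0 without a filter, 0 with DESeq2's Wald test and 0 over windows that overlap no other, where bidir_34088 could not be tested. With a library left out it ranged from 0 to 3: it was 0 without any library of 0 min or without library 1 or 2 of 15 min, and 3 without library 3 of 15 min (adding bidir_34060 and bidir_34067). At 30 against 0 min the range was 0 to 1, with 1 call (bidir_34087, 1.37) without library 2 of 0 min, and at 30 against 15 min it was 0 throughout. In the main setting the internal-to-end ratio could be formed for Lef1 alone of the 6 genes. It gave 0 calls in every setting run, where genes without the ratio could not be called. With the replicate number as a block, the member calls were 1, 0 and 0 in the 3 comparisons, no call changed, and all regions gave 4804, 1107 and 421 calls against 4479, 945 and 382.

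Over all regions the calls at 15 against 0 min fell to 2150 without library 1 of 0 min, 2950 without library 3 of 0 min, 2185 without library 1 of 15 min and 2123 without library 2 of 15 min. At 30 against 0 min they came to 171 and 475 without library 1 or 3 of 0 min, to 1510 without library 3 of 15 min, and to 283, 338 and 245 without library 1, 2 or 3 of 30 min. At 30 against 15 min they came to 193 and 202 without library 1 or 2 of 15 min, and to 183, 154 and 222 without library 1, 2 or 3 of 30 min. The cause was not tested. With gene-end scaling 4124 of 5099 calls at 15 against 0 min were higher, against 2331 of 4479, and 1109 of 1244 at 30 against 0 min against 675 of 945.

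Among 429 values of named windows under other settings, 390 kept direction and side of the threshold, 7 lost the call (all bidir_34088 at 15 min) and 32 turned sign, none of them called. With gene-end scaling the log2 change became -0.015 for bidir_54098 at 30 against 15 min, 0.025 for bidir_112724 at 30 against 0 min, -0.049 for bidir_112725 at 30 against 15 min, 0.15 for bidir_104225 at 15 against 0 min, -0.030 for bidir_104225 at 30 against 15 min, -0.0075 for bidir_104226 at 30 against 15 min. For bidir_112725 at 30 against 15 min it was -0.0036 with 20 counts in 3 libraries, -0.013 with the replicate block. For bidir_104225 at 30 against 0 min it was -0.0022 with DESeq2 size factors, -0.0061 with library size alone, -0.025 without a filter, -0.0024 with DESeq2's Wald test. With a library left out the ranges that crossed 0 were -0.057 to 0.11 for bidir_54098 at 30 against 15 min, -0.37 to 0.15 for bidir_112724 at 30 against 0 min, -0.21 to 0.20 for bidir_112725 at 30 against 15 min, -0.18 to 0.10 for bidir_104225 at 15 against 0 min, -0.15 to 0.13 for bidir_104225 at 30 against 0 min, -0.049 to 0.10 for bidir_104225 at 30 against 15 min, -0.089 to 0.16 for bidir_104226 at 30 against 15 min, -0.37 to 0.18 for bidir_92831 at 30 against 0 min, -0.065 to 0.49 for bidir_92831 at 30 against 15 min. The cause was not tested. Depth limits the windows with few reads: over the 35 tested members the 95% interval of a log2 change was 0.559 to 2.78 wide (15 against 0 min).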
